A study of Mus musculus with 12 samples.

Results

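The 9 genes described here write, erase or read DNA methylation: the DNA methyltransferases Dnmt1, Dnmt3a and Dnmt3b, the methylcytosine dioxygenases Tet1, Tet2 and Tet3, and the methyl-CpG binding domain genes Mbd1, Mbd2 and Mbd3. The rule that picks them is a list of symbols with no threshold on a measured value, and each symbol had 1 row among the 24525 genes of the count tables. All 9 passed the filter on low counts and were among the 13112 genes tested. The cells were neural stem/progenitor cells (NSPCs) from the forebrain of C57BL/6 embryos at E14.5, grown as neurospheres, that is, floating spheres kept with EGF, bFGF, N2 and B27 without vitamin A, at passage P1. Wild-type cells (3 libraries) were compared with Ythdf2-/- cells (3 libraries). In the Ythdf2-/- line, LoxP sites were placed by CRISPR-Cas9 around the 5′ UTR and exon 1. A Cre that is active in all tissues had recombined them, so this part of the gene was missing from the whole embryo and not from the brain alone. Ythdf2 encodes a reader of the RNA mark m6A that promotes decay of marked mRNA. The libraries were the input of an m6A immunoprecipitation, meaning mRNA fragments that had not met the antibody, and the 6 m6A-IP samples were not analysed here.

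DNA methylation in mammals sits mostly on cytosines of CpG dinucleotides. DNMT3A and DNMT3B place it on unmethylated DNA, and DNMT1, brought to the replication fork by UHRF1, copies it onto the new strand after each S phase. TET enzymes oxidise methylcytosine, the first step of its removal, and MBD proteins bind methylated CpGs or, for MBD3, act mainly within the NuRD chromatin remodelling complex. In the embryonic brain, DNMT1 is needed for the survival of newly made neurons, and DNMT3A takes over from DNMT3B as neural progenitors mature.

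Ythdf2 itself, the check of the labels, had 71.9, 73.3 and 91.4 CPM (reads per 1000000 counted reads, scaled with TMM factors) in wild type and 11.7, 14.7 and 11.1 CPM in Ythdf2-/-. Every Ythdf2-/- library was below every wild-type library, and the mean was 6.32-fold lower (log2 fold change -2.66, SE 0.183, unadjusted p = 4.17e-06, adjusted p = 0.0547 by edgeR). The targeted gene itself thus did not pass an adjusted p of 0.05 with these 6 libraries. The libraries held 11029827 to 13185778 counted reads. Wild-type replicate 3 stood apart from the other 5: its mean Spearman correlation with them was 0.900, against 0.962 to 0.970 for each of the others, and it lay alone at 91.0 on a first principal component with 74.2% of the variance (the others from -30.6 to -6.04). In that library 11 genes of S phase and proliferation summed to 193 CPM, against 1977 to 2925 CPM in the other 5, while the astroglial markers summed to 5008 CPM (954 to 1674) and the oligodendrocyte lineage markers to 3423 CPM (1574 to 1903). The 6 progenitor markers were present in every library, but summed to 3322 CPM in wild-type replicate 3 against 4782 to 6491 CPM elsewhere, with Nes, Vim and Fabp7 lowest and Sox2, Pax6 and Hes5 highest there. Microglia and endothelial markers summed to at most 1.71 CPM in any library, and mesenchymal markers to 32.4 CPM in wild-type replicate 3 (Pdgfrb at 31.8) against 0.889 to 4.35 CPM elsewhere. The neuronal markers summed to 1901 CPM in wild-type replicate 3 and 1220 to 1439 CPM elsewhere, with Dcx at 315 CPM (8.36 to 13.1) and Tubb3 at 76.9 CPM (7.16 to 42.4). Most of that sum was Map2 (1440 CPM), while Gap43 was lowest in that library (55.8 CPM against 74.1 to 176). Stmn2 stood at 1.46 CPM there, beside 1.54 and 1.45 in the other wild-type libraries and 0.0853, 0.592 and 0.161 in Ythdf2-/-. It had at most 19 reads in any library (log2 fold change -2.33, unadjusted p = 0.00914, adjusted p = 0.999 by edgeR). Of the 6 neuronal markers, Stmn2 was the single one whose groups did not overlap. Gfap, the astroglial filament gene, was lower in every Ythdf2-/- library (127, 87.7 and 5.55 CPM) than in wild type (437, 625 and 3046 CPM), with an unadjusted p of 0.0289 and an adjusted p of 0.254 by edgeR without wild-type replicate 3. The other 4 astroglial markers did not follow Gfap: in that fit Aldh1l1 (0.18), S100b (0.21), Slc1a2 (0.17) and Aqp4 (-0.09) had unadjusted p-values of 0.440 to 0.862. The part of these cell types in the results was not tested. Of the 6 libraries, 3 held reads on 4 Y-linked genes (wild-type replicates 1 and 2, Ythdf2-/- replicate 3), and the other 3 had 0 or 1 such read. The fold changes and ratios of the 9 genes are therefore also given without wild-type replicate 3. Fewer cells of a type and less RNA per cell cannot be told apart in such bulk libraries.

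With all 6 libraries, none of the 9 genes passed the test between genotypes. By edgeR's quasi-likelihood test with Benjamini-Hochberg adjustment, 0 of the 9 had an adjusted p under 0.05 (0% of all genes tested were called), and 0 had an unadjusted p under 0.05 (3.63% of all genes tested). DESeq2 and limma-voom likewise called 0 of the 9 at either threshold. The median log2 fold change of the 9 was -0.02, and that of all genes tested was -0.01. Of the 9, 4 had a positive and 5 a negative fold change. Mbd1 was the single member whose groups did not overlap, with all 3 Ythdf2-/- libraries above all 3 wild-type libraries (5.24% of genes tested lay that way, and 4.92% the opposite way). The labels do not say whether the libraries of a genotype came from separate embryos, so the p-values measure the spread between these libraries.

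**Figure D1:**
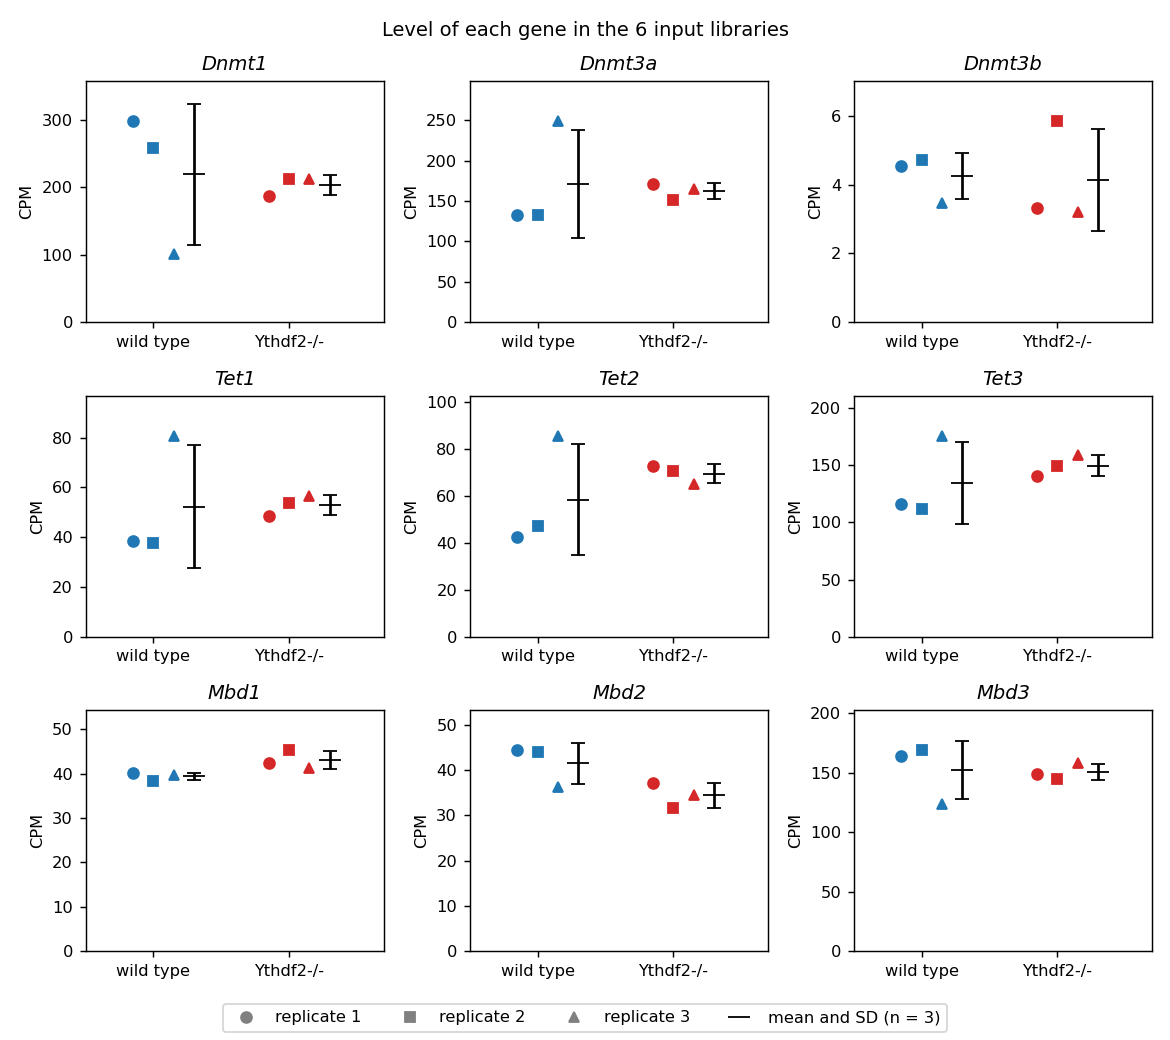
Level of each of the 9 genes in CPM (vertical axes, from 0) in the 3 wild-type (blue) and 3 Ythdf2-/- (red) libraries; marker shapes give the replicate number, and the black mark and bar give the mean and SD of 3 libraries. Wild-type replicate 3 (blue triangle) was the lowest library for Dnmt1 and Mbd3 and the highest for Dnmt3a, Tet1, Tet2 and Tet3, and only for Mbd1 did the groups not overlap.

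The most abundant member per base of mRNA was Mbd3, and the least abundant was Dnmt3b. On the RPKM scale, which is CPM per 1000 bases of exon in the annotation, Mbd3 had 92.1 ± 9.81 (SD, n = 6 libraries) and ranged from 75.5 to 103 RPKM. Dnmt1 followed at 33.4 ± 10.6 RPKM, outside the range of Mbd3. Dnmt3a (16.8 ± 4.34 RPKM), Mbd2 (16.2 ± 2.2 RPKM) and Tet3 (12.1 ± 2.11 RPKM) came next. In this stretch of the order each gene overlapped its neighbour: Dnmt1 with Dnmt3a (16 to 47.1 against 13.3 to 25.0 RPKM), Dnmt3a with Mbd2, and Mbd2 with Tet3. Mbd1 (7.41 ± 0.436 RPKM) and Tet2 (6.95 ± 1.78 RPKM) overlapped each other, and Tet2 overlapped Tet1 (3.67 ± 1.10 RPKM). Dnmt3b had 0.968 ± 0.239 RPKM, below every library of Tet1. The order was the same in both genotypes except that Dnmt3a and Mbd2 changed places (17.2 and 17.7 RPKM in wild type, 16.3 and 14.6 RPKM in Ythdf2-/-). Without wild-type replicate 3, Mbd2 (16.3 RPKM) stood above Dnmt3a (15.1 RPKM), and neither Dnmt1 and the next gene (29.5 to 47.1 against 13.4 to 18.9 RPKM) nor Tet2 and Tet1 (4.63 to 7.92 against 2.63 to 3.94 RPKM) overlapped any longer. With the gene lengths of the deposited expression tables, 4 genes changed places: Mbd2 moved above Dnmt3a and Mbd1 above Tet3, since that table gave Mbd1 2672 bases where the annotation's exons cover 5562.

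**Figure D2:**
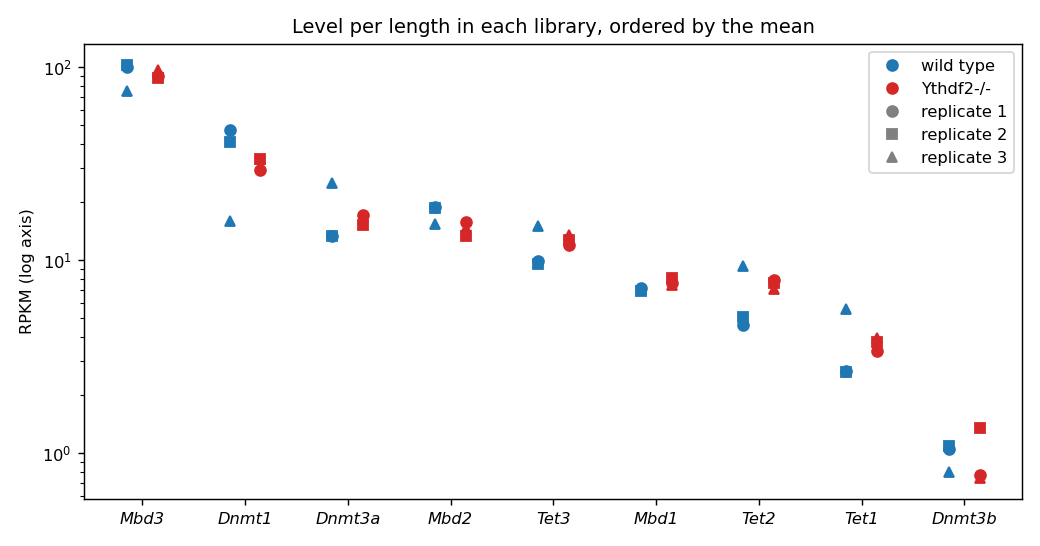
RPKM (vertical log axis) of the 9 genes in each library, ordered from left to right by the mean of all 6; blue marks wild type, red marks Ythdf2-/-, and marker shapes give the replicate number. Mbd3 lay between 75.5 and 103 and Dnmt3b between 0.744 and 1.35, while the genes between Dnmt1 and Tet1 mostly overlapped their neighbours.

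Dnmt1, the maintenance methyltransferase, is encoded on the minus strand at chr9:20907206-20959888 (GRCm38.p6, the assembly also called mm10), and its transcript with the longest coding sequence has 39 exons. It had 298, 258 and 101 CPM in wild type and 187, 212 and 212 CPM in Ythdf2-/-. The Ythdf2-/- libraries lay together below wild-type replicates 1 and 2 and above replicate 3, so that the wild-type libraries spanned the Ythdf2-/- ones on both sides. The means were 219 ± 104 CPM in wild type and 204 ± 14.7 CPM in Ythdf2-/- (SD, n = 3), with a log2 fold change of -0.11 (SE 0.383, adjusted p = 0.999 by edgeR). Dnmt1 in wild-type replicate 3 was 2.75-fold below the mean of replicates 1 and 2. Of all genes tested, 13.4% shifted by more in that library.

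Without wild-type replicate 3, the log2 fold change of Dnmt1 was -0.45 (SE 0.116, unadjusted p = 0.00762, adjusted p = 0.191 by edgeR). All 3 Ythdf2-/- libraries then lay below both wild-type libraries. This is to be read against the background of that fit, in which 16.6% of all genes tested had an unadjusted p under 0.05, 0.0151% were called after adjustment, and 38.9% did not overlap between 2 and 3 libraries. The fit with a term for Y-linked reads, added after seeing the data and made without the same library, gave -0.39 (SE 0.156, adjusted p = 0.363 by edgeR). In that fit 13.6% of all genes tested had an unadjusted p under 0.05. Among libraries with Y-linked reads, Dnmt1 in the single Ythdf2-/- library was 0.763 times the mean of the 2 wild-type libraries. Among those without, the 2 Ythdf2-/- libraries were 1.97 times wild-type replicate 3.

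Dnmt1 and the S phase genes were both lowest in wild-type replicate 3, but by different amounts. A comparison chosen after its values were seen set Dnmt1 reads against the 11 genes of S phase and proliferation. Per 100 reads of that list the first and second wild-type libraries had 10.2 and 9.93 Dnmt1 reads, and the Ythdf2-/- libraries had 9.45, 10.1 and 9.68. Wild-type replicate 3 had 52.3. In that library Dnmt1 was therefore reduced far less than the list, which includes Mki67, a nuclear protein of cycling cells, at 9.98 CPM (554 to 698 CPM elsewhere). Uhrf1, the partner that brings DNMT1 to hemimethylated CpGs, was named after its values were seen. It had 186, 162 and 3.11 CPM in wild type and 120, 124 and 137 CPM in Ythdf2-/-. The order of the libraries was like that of Dnmt1, with wild-type replicates 1 and 2 highest and replicate 3 lowest, and the drop in replicate 3 was 55.8-fold.

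The promoters of the members and of Uhrf1, the latter taken up after its values were seen, were searched for 2 spellings of the E2F motif, TTCCCGC and TTGGCGC, on both strands. E2F factors switch on genes at the start of S phase. The windows ran from 250 bases before to 50 bases after each RefSeq start site. One or the other spelling was found in 6.81% of all 32851 windows of this length. Since Dnmt1 has 3 windows and Uhrf1 has 2, the shares per gene are the closer background: 12.8% of 721 genes with 3 windows and 12.4% of 3102 genes with 2 held a match in at least 1. Of the 9 genes, 7 matched the table of windows, and among them a single window of Dnmt1 held a match. The matches in Dnmt1 (minus strand, chr9:20952574-20952598, 34 bases after a start site) and Uhrf1 (plus strand, chr17:56303280-56303304, 48 bases before one) are shown 5′ to 3′ with the motif in capitals, from RefSeq on GRCm38.p6:
Dnmt1: gggcagcgtTTGGCGCgggctgtgc
Uhrf1: ctttctcgcTTCCCGCcacagcgcc
A match of these letters is a description and not a binding site, and says nothing of why these genes differed between libraries. The 3 windows of Dnmt1 held 2, 12 and 33 CpGs, and the match was in the window with 33. The median of all windows was 7 CpGs, and the highest count among the members was the 57 CpGs of Tet2.

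Ythdf2 binds m6A, which is often found near stop codons, commonly within GGACT. This motif was therefore searched on the mRNA strand within 200 bases on either side of the end of the stop codon, in 1 transcript a gene. It was present in 40.7% of 10889 genes and in 2 of the 9 members, Dnmt1 and Dnmt3b. The site of Dnmt1 (minus strand, chr9:20907513-20907537) and the pair of Dnmt3b (plus strand, chr2:153686368-153686392 and chr2:153686399-153686423) are shown with the motif in capitals, from RefSeq on GRCm38.p6:
Dnmt1: ctgctaccaaGGACTagtgctctca
Dnmt3b, first: cccccttgaaGGACTactttgcctg
Dnmt3b, second: gttctacccaGGACTggggagctct
Whether these adenosines carried m6A was not measured here, and neither gene passed the test between genotypes.

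Dnmt3a, the de novo methyltransferase that predominates in maturing neural cells, lies on the plus strand at chr12:3801559-3914443. It had 132.8, 132.6 and 248.7 CPM in wild type and 170.7, 151 and 164.6 CPM in Ythdf2-/-. Its pattern was the reverse of that of Dnmt1: wild-type replicates 1 and 2 were lowest, replicate 3 was highest, and the Ythdf2-/- libraries lay between. The log2 fold change was -0.08 (SE 0.272, adjusted p = 0.999 by edgeR). Without wild-type replicate 3 the direction turned, to 0.29 (SE 0.0955, unadjusted p = 0.0224, adjusted p = 0.241), with every Ythdf2-/- library above both wild-type libraries. A copy, Dnmt3a-ps1, had no row of its own. Its likeness was not measured, so reads could be shared with it.

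The balance of the 2 main methyltransferases differed most in wild-type replicate 3, in a ratio chosen after the values were seen. For each Dnmt3a read there were 2.24, 1.95 and 0.407 Dnmt1 reads in wild type and 1.09, 1.40 and 1.29 in Ythdf2-/-. All 3 Ythdf2-/- libraries were below wild-type replicates 1 and 2, and wild-type replicate 3 was the single library with more Dnmt3a than Dnmt1 reads.

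Dnmt3b, the de novo methyltransferase of the early embryo, lies on the plus strand at chr2:153649411-153687730. It had the fewest reads of the 9 genes, with 53, 62 and 38 reads in wild type and 39, 79 and 40 reads in Ythdf2-/-. In CPM these were 4.54, 4.73 and 3.48 against 3.33, 5.85 and 3.22. The highest library and the lowest library were both Ythdf2-/-, and the groups overlapped with and without wild-type replicate 3. The log2 fold change was -0.04 (SE 0.336, adjusted p = 0.999 by edgeR), and -0.16 without that library (SE 0.337, adjusted p = 0.840). Reads could be shared with the copy Dnmt3b-ps1, which had no row of its own and whose likeness was not measured. Relative to Dnmt3a there were 3.41, 3.57 and 1.40 Dnmt3b reads per 100 in wild type and 1.95, 3.87 and 1.96 in Ythdf2-/-. The log2 ratio differed between genotypes by -0.07 (exact permutation test, two-sided, p = 1, adjusted p = 1 over 4 ratios), where 3 against 3 libraries cannot go below 0.1. It was -0.51 without wild-type replicate 3 (exact permutation p = 0.4).

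The 3 Tet genes shared 1 pattern: lowest in wild-type replicates 1 and 2, intermediate in Ythdf2-/- and highest in wild-type replicate 3. Summed, they had 197, 196 and 342 CPM in wild type and 262, 274 and 280 CPM in Ythdf2-/-. All of them encode dioxygenases that need iron and 2-oxoglutarate, and Tet2 differs from the others in having no CXXC DNA-binding domain of its own.

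Tet1 (minus strand, chr10:62804570-62887469) had 38.4, 37.7 and 80.7 CPM in wild type and 48.6, 53.9 and 56.6 CPM in Ythdf2-/-. The Ythdf2-/- libraries lay above wild-type replicates 1 and 2 and below replicate 3, which was 2.12-fold above the mean of those 2. With all libraries the log2 fold change was 0.02 (SE 0.319, adjusted p = 0.999 by edgeR). The value was 0.48 without wild-type replicate 3 (SE 0.108, unadjusted p = 0.00408, adjusted p = 0.174).

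Tet2 (minus strand, chr3:133463677-133545136) had 42.6, 47.0 and 85.7 CPM in wild type and 72.9, 70.6 and 65.3 CPM in Ythdf2-/-. Again wild-type replicate 3 alone lay above the Ythdf2-/- libraries. Its log2 fold change was 0.25 (SE 0.280, adjusted p = 0.999 by edgeR), and 0.63 without wild-type replicate 3 (SE 0.104, unadjusted p = 0.000779, adjusted p = 0.151). Tet2 was the single member called under any alternative. With sample quality weights in limma-voom, which gave wild-type replicate 3 a weight of 0.0957, its log2 fold change was 0.63 and its adjusted p was 0.0452. Leaving out another wild-type library moved edgeR's log2 fold change down, to 0.07 without replicate 1 and 0.12 without replicate 2. The fit with quality weights called 1.15% of all genes tested after adjustment, and 28.1% had an unadjusted p under 0.05.

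Tet3 (minus strand, chr6:83362373-83457208), the most abundant Tet gene per length, had 116, 112 and 176 CPM in wild type and 141, 150 and 159 CPM in Ythdf2-/-. Wild-type replicate 3 was the highest library here too, by 1.54-fold over the mean of replicates 1 and 2. The log2 fold change was 0.16 (SE 0.203, adjusted p = 0.999 by edgeR), and 0.40 without wild-type replicate 3 (SE 0.0954, unadjusted p = 0.00559, adjusted p = 0.184). It was 0.06 without replicate 1 of the wild type and 0.04 without replicate 2.

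Within libraries alike in Y-linked reads, the ratios of the Tet genes went opposite ways, and each arm had a single library of 1 genotype. The Ythdf2-/- library with such reads, which, like the others of its genotype, lay above wild-type replicates 1 and 2, stood at 1.49 times the mean of wild-type replicates 1 and 2 for Tet1, 1.46 times for Tet2 and 1.40 times for Tet3. Among libraries without such reads, where wild-type replicate 3 was the single wild-type library, the ratios were 0.635, 0.837 and 0.826. When Y-linked reads entered the fit as a term and wild-type replicate 3 was left out, the log2 fold changes were 0.57, 0.54 and 0.48. Genotype in that fit rests on Ythdf2-/- replicate 3 alone against wild-type replicates 1 and 2, so these values restate the first set of ratios. With the term and all libraries the values were -0.04 for Tet1, 0.14 for Tet2 and 0.10 for Tet3.

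Within the family, the proportions of the Tet genes varied less than their levels. There were 33.2, 33.8 and 46.0 Tet1 reads per 100 Tet3 reads in wild type and 34.6, 36.0 and 35.6 in Ythdf2-/-. Apart from wild-type replicate 3 these lay within a narrow range. The log2 ratio differed by -0.07 between genotypes (exact permutation test, two-sided, p = 1, adjusted p = 1). Its direction turned without wild-type replicate 3, to 0.08 (exact permutation p = 0.2). For Tet2 there were 36.8, 42.1 and 48.8 reads per 100 Tet3 reads in wild type and 51.9, 47.2 and 41.1 in Ythdf2-/-. These groups overlapped, and the log2 ratio differed by 0.14 (exact permutation test, two-sided, p = 0.5, adjusted p = 1), and by 0.0377 to 0.24 with 1 library left out, the highest being that without wild-type replicate 3 (exact permutation p = 0.3) and the lowest that without wild-type replicate 1.

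**Figure D3:**
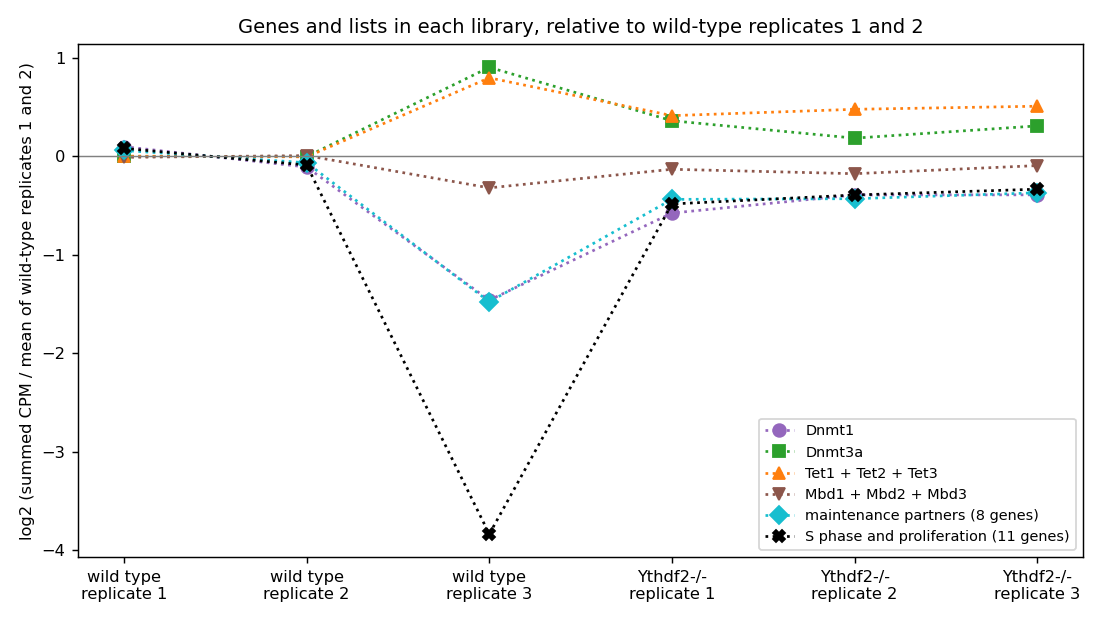
Level of Dnmt1, Dnmt3a, the summed Tet and Mbd genes, 8 maintenance methylation partners and 11 genes of S phase and proliferation in each library, as the log2 of the summed CPM over its mean in wild-type replicates 1 and 2 (0 on the vertical axis); dotted lines only join the points of a series. In wild-type replicate 3 the Tet genes summed to 342 CPM and Dnmt1 stood at 101 CPM, and in every Ythdf2-/- library each series lay on the same side of 0 as in that library but closer to 0.

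The Mbd genes, summed, had 248, 251 and 200 CPM in wild type and 228, 221 and 234 CPM in Ythdf2-/-. Mbd1, on chromosome 18, encodes a protein that binds methylated CpGs and also carries CXXC domains. It had 40.05, 38.4 and 39.7 CPM in wild type and 42.5, 45.2 and 41.4 CPM in Ythdf2-/-. The groups did not overlap, and wild-type replicate 3 fell between replicates 1 and 2, unlike in the other members; 98.0% of genes tested shifted by more than Mbd1 in that library. The difference was small, with a log2 fold change of 0.13 (SE 0.116, adjusted p = 0.999 by edgeR) and an exact permutation p of 0.1 (two-sided), the smallest that 3 against 3 libraries allow. It was 0.13 also without wild-type replicate 3 (SE 0.0998, adjusted p = 0.533).

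Mbd2, also on chromosome 18, encodes the methyl-CpG binding subunit that can take the place of MBD3 in NuRD. It had 44.3, 44.0 and 36.3 CPM in wild type and 37.2, 31.5 and 34.4 CPM in Ythdf2-/-. Ythdf2-/- replicate 1 lay above wild-type replicate 3, and otherwise the wild-type libraries were higher. The log2 fold change was -0.27 (SE 0.145, adjusted p = 0.999 by edgeR), and -0.36 without wild-type replicate 3 (SE 0.112, unadjusted p = 0.0171, adjusted p = 0.231).

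Mbd3 (minus strand, chr10:80392539-80399531) had 164, 169 and 124 CPM in wild type and 149, 145 and 158 CPM in Ythdf2-/-. The Ythdf2-/- libraries lay between wild-type replicate 3 and the other 2. The log2 fold change was -0.02 (SE 0.154, adjusted p = 0.999 by edgeR) and -0.15 without wild-type replicate 3 (SE 0.0897, adjusted p = 0.450).

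Set against Mbd3, Mbd2 was lower in every Ythdf2-/- library than in every wild-type library. There were 27.0, 26.1 and 29.3 Mbd2 reads per 100 Mbd3 reads in wild type and 25.0, 21.8 and 21.8 in Ythdf2-/-. The log2 ratio was -1.87 ± 0.0857 in wild type and -2.13 ± 0.114 in Ythdf2-/- (SD, n = 3). The difference of -0.27 had an exact permutation p of 0.1 (two-sided), the smallest the design allows, and an adjusted p of 0.4 over the 4 ratios. Without wild-type replicate 3 it was -0.22 (exact permutation p = 0.2). This ratio does not depend on the scaling of the libraries.

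Leaving out wild-type replicate 3 thus moved 6 of the 9 genes to an unadjusted p under 0.05, with Dnmt3a, Tet1, Tet2 and Tet3 higher and Dnmt1 and Mbd2 lower in Ythdf2-/-, where 16.6% of all genes tested passed that threshold. By edgeR 0 of the 9 had an adjusted p under 0.05. In that fit 8 of the 9 did not overlap between genotypes, all but Dnmt3b, beside 38.9% of all genes tested.

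**Figure D4:**
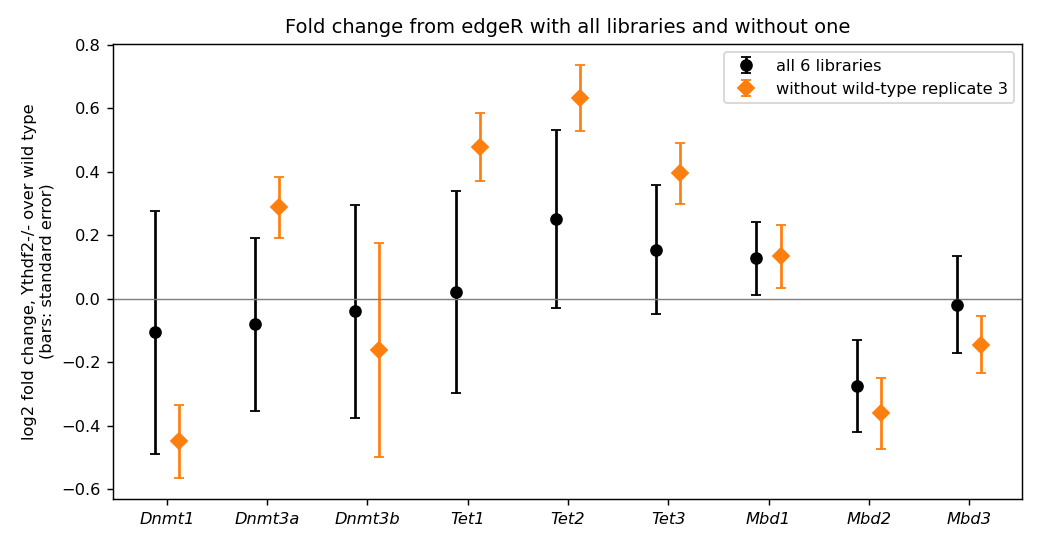
Log2 fold change of Ythdf2-/- over wild type (vertical axis) for the 9 genes from edgeR, with all 6 libraries (black circles) and without wild-type replicate 3 (orange diamonds); bars are standard errors. Without that library Tet2 stood at 0.63 and Dnmt1 at -0.45, and the value for Mbd1 was 0.13 in both fits.

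The summed level of the 9 genes was nearly even, from 843 to 895 CPM over the 6 libraries. For each member, the 2 genes with the most similar profile over the 6 libraries were taken by the Pearson correlation of log2 CPM, as a description over 6 points of which wild-type replicate 3 was often the extreme. They were Nt5dc1 and Rwdd2b for Dnmt1 (0.999 and 0.998), Clip2 and Crtc1 for Dnmt3a (0.998 for both), and Tgm2 and Adamts6 for Dnmt3b (0.995 and 0.991). For the Tet genes they were Dync1h1 and Wdr59 for Tet1 (0.996 for both), Grik2 and Zfp777 for Tet2 (0.999 and 0.998), and Clcn6 and Fzd3 for Tet3 (0.999 and 0.994). For the Mbd genes they were Zic1 and Ncoa3 for Mbd1 (0.991 and 0.984), Enoph1 and Nip7 for Mbd2 (0.996 and 0.992), and Larp1b and Psmd7 for Mbd3 (0.997 and 0.996).

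The partners of these genes were read from lists chosen alongside the members. With all 6 libraries, 0 genes of any list passed an adjusted p of 0.05 by edgeR, and 1 gene of the pathway lists had an unadjusted p under 0.05. That gene was Mat2a, of the 8 genes of the S-adenosylmethionine cycle (median log2 fold change -0.06), which makes S-adenosylmethionine, the methyl donor of the DNMT enzymes. Mat2a had 287, 291 and 322 CPM in wild type and 243, 169 and 249 CPM in Ythdf2-/-. All 3 Ythdf2-/- libraries were lower, and wild-type replicate 3 did not stand apart for this gene (log2 fold change -0.45, SE 0.184, unadjusted p = 0.0493, adjusted p = 0.999 by edgeR). For Mat2a the log2 fold change without wild-type replicate 3 was -0.39, with an unadjusted p of 0.0694. In that fit the cycle genes Ahcy (-0.38) and Mtrr (-0.45) were lower at an unadjusted p under 0.05, as were 8.58% of all genes tested. The adjusted p-values by edgeR of Ahcy and Mtrr were 0.213 and 0.208.

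The 8 maintenance partners of Dnmt1 summed to 1158, 1062 and 399 CPM in wild type and 821, 825 and 860 CPM in Ythdf2-/-, the same order of libraries as Dnmt1. Their median log2 fold change was -0.06. Pcna, the sliding clamp of the replication fork, was the most abundant (log2 fold change -0.11, SE 0.497), and Usp7, a deubiquitinase that acts on DNMT1 and UHRF1, had the widest change (-0.18, SE 0.114, and -0.12 without wild-type replicate 3). Without wild-type replicate 3, 4 of the 8 had an unadjusted p under 0.05, all lower in Ythdf2-/-: Uhrf1 (-0.45), the remodeller Hells (-0.67), Pcna (-0.53) and the ligase Lig1 (-0.50). In the same fit 9 of the 11 genes of S phase and proliferation were lower at that threshold, with a list median of -0.57, beside 0.01 for all genes tested. Of all genes tested in that fit, 8.58% were lower and 8.03% higher in Ythdf2-/- at that threshold. With all libraries 0 of the 11 passed either threshold, the list median was -0.09, and Mki67 was both the most abundant and the one with the widest change (log2 fold change 0.48, and -0.10 without wild-type replicate 3).

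For the de novo enzymes, 6 of 7 partners were tested, with a median log2 fold change of 0.03. Dnmt3l, the catalytically inactive cofactor of germ cells, had at most 2 reads in any library. Trim28, the corepressor that KRAB zinc finger proteins recruit, was the most abundant (log2 fold change -0.17, SE 0.161), and Zfp57, which binds methylated imprinting control regions, had the widest change (-0.17, SE 0.557), which turned to 0.46 without wild-type replicate 3. Trim28 was the single gene of this list at an unadjusted p under 0.05 once wild-type replicate 3 was left out (-0.30, adjusted p = 0.242 by edgeR).

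For the Tet genes, 10 of 11 partners and cofactor enzymes were tested, with a median of -0.10. Idh1, which makes 2-oxoglutarate, was the most abundant (log2 fold change 0.17), and Gadd45g had the widest change (-1.27, and -0.56 without wild-type replicate 3). Gadd45g stood at 37.7, 32.7 and 102 CPM in wild type and at 28.6, 33.3 and 9.74 CPM in Ythdf2-/-, and its groups overlapped. Tdg, the glycosylase that removes oxidised methylcytosine, had 0 or 1 read in every library. Its copies had no rows and their likeness was not measured, so that the level of Tdg should not be read from these counts. Leaving out wild-type replicate 3 brought Ogt (0.31) and Cxxc4 (0.82) to an unadjusted p under 0.05, as it did 16.6% of all genes tested. Their adjusted p-values by edgeR were 0.259 and 0.298.

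Of the readers, 6 further genes that bind methylated CpGs had a median of 0.07. Among them Zbtb38 had the widest change (log2 fold change 0.26, SE 0.263, and 0.40 without wild-type replicate 3). In the fit without wild-type replicate 3, Mbd5 (0.39), Mbd6 (0.52) and Zbtb33 (0.37) had an unadjusted p under 0.05, as had 16.6% of all genes tested. Their adjusted p-values by edgeR were 0.19 to 0.244. The 5 readers of unmethylated CpG had a median of 0.02, with Kmt2a the most abundant (0.01, and 0.22 without wild-type replicate 3) and Kdm2b the widest (0.10, and 0.15 without it).

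The 11 NuRD partners of Mbd2 and Mbd3 had a median of -0.08. Chd4, the main ATPase of the complex, was the most abundant (log2 fold change 0.07, SE 0.181, and 0.22 without wild-type replicate 3), and its paralog Chd3 had the widest change (0.61, SE 0.453). With wild-type replicate 3 left out, Chd3 (1.22) and Gatad2b (0.33) were higher and the deacetylases Hdac1 (-0.30) and Hdac2 (-0.29) and Rbbp7 (-0.38) were lower at an unadjusted p under 0.05. Adjusted p-values by edgeR of these 5 genes were 0.178 to 0.298, and 16.6% of all genes tested passed the unadjusted threshold in that fit.

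The 10 germline genes whose promoters are normally silenced by DNA methylation served as a readout of lost silencing. They summed to 7.10 to 12.4 CPM in any library, 4 of the 10 were at 0 reads in all libraries, and 2 could be tested. Sycp3, a protein of the meiotic chromosome axis, had a log2 fold change of 0.07 (SE 0.412), and the germ cell helicase Ddx4 had 0.25 (SE 0.428). These were 0.22 and 0.52 without wild-type replicate 3, with unadjusted p-values of 0.630 and 0.282. Methylation itself was not measured.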

How the data were processed

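Gene-level read counts were analysed for the 3 wild-type and 3 Ythdf2-/- input libraries, grouped by the titles and genotypes in the labels. Per gene, the authors deposited a raw count of reads, not normalized, after alignment by TopHat to mm10. The submitters' processing notes list Bowtie2 2.2.9, RSEM 1.2.15 and featureCounts. The kit keeps strand, but the strand setting and the treatment of reads mapping to several genes are not given in the sources used here. Of the deposited expression tables only the gene length was used, and the m6A-IP samples were not analysed here.

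Genes passing filterByExpr (13112 of 24525) were tested with edgeR 4.0.16 (TMM, robust glmQLFit, glmQLFTest) under R 4.3.3. The model held genotype alone, and p-values were adjusted by Benjamini-Hochberg over all genes tested. Alternatives used DESeq2 1.42.0 and limma 3.58.1 (voom), other scalings and filters, a term for Y-linked reads (a sum above 3), the replicate number as a block, and the removal of each library. Log2 CPM used a prior count of 2. Ratios of reads were compared by exact permutation tests.

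The members and lists were chosen with earlier results of these data known. Named were the 9 members, Ythdf2, in each pathway list the genes with an unadjusted p under 0.05 or otherwise the most abundant gene and that with the widest change, and the 2 closest profiles per member. A gene that this rule names is not reported here. Uhrf1, genes named for the fit without wild-type replicate 3, untested genes and markers were named after their values were seen. Sequences came from RefSeq on GRCm38.p6, read with pysam 0.24.0. Libraries of 11029827 to 13185778 reads set the precision, with 38 to 79 reads for Dnmt3b.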

Additional observations from a re-analysis of the deposited data

How the results depend on the processing

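The log2 fold changes of the 9 genes were recomputed under 17 alternatives, 1 of them (no wild-type replicate 3, with a term for Y-linked reads) added after seeing the data. Tet2, Tet3, Mbd1 and Mbd2 kept their direction in all of them, and 131 of 153 values kept both direction and side of the threshold. The direction turned for Dnmt1 under limma-voom (0.0441), with the replicate block (0.0270) and with a term for Y-linked reads (0.29). The Y-linked term also turned Tet1 (-0.0443) and Mbd3 (0.0827), and quality weights turned Dnmt3a (0.32). Quality weights gave 1 member past an adjusted p of 0.05 (Tet2, 0.63) and 6 with an unadjusted p under 0.05, as had 28.1% of all genes tested. Without wild-type replicate 3 and with the Y-linked term, Dnmt3a stood at 0.31. Genotype in that fit rests on Ythdf2-/- replicate 3 alone.

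Leaving out 1 library at a time gave -0.45 to 0.18 for Dnmt1, -0.23 to 0.29 for Dnmt3a, -0.37 to 0.11 for Dnmt3b, -0.17 to 0.48 for Tet1, 0.07 to 0.63 for Tet2, 0.04 to 0.40 for Tet3 and -0.15 to 0.0631 for Mbd3. The log2 ratio ranged from -0.51 to 0.17 for Dnmt3b to Dnmt3a, from -0.15 to 0.0815 for Tet1 to Tet3 and from 0.0377 to 0.24 for Tet2 to Tet3. Between 0 and 6 members had an unadjusted p under 0.05, and 1 to 8 did not overlap between genotypes, the highest counts being those without wild-type replicate 3. In the order per length, 4 members changed places with the deposited gene length and 2 without wild-type replicate 3 (also added after seeing the data). The cause of these changes was not tested.

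Deviations of same-numbered libraries from their group means correlated at -0.25, -0.24 and -0.39. The wild-type mean includes the outlying wild-type replicate 3, so these values cannot show whether the replicate numbers pair the libraries. With the replicate block, 0 of the 9 members had an unadjusted p under 0.05, and 183 of all genes did, against 476 without it. Among all genes tested, DESeq2 called 31 after adjustment where edgeR called 0. Dnmt3b had the fewest reads, 38 to 79 per library.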
